A study of Mus musculus with 15 samples.

Results

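Axon guidance ligands and receptors were described in mouse medulloblastoma and normal cerebellum. The genes were taken by their symbols: semaphorins, plexins, Eph receptors, ephrins, Slits, Robos, netrins and Unc5 genes, together with Nrp1, Nrp2 and Dcc. Of 17157 gene symbols that could be put on the array's probes, 67 met this rule, and 61 of the 67 were bright enough to be tested. The prefix Unc5 also takes in Unc50 and Unc5cl, which are not netrin receptors. Efna3, Plxnb2, Robo3, Sema3g and the antisense gene Plxna4os1 bear matching symbols but had no probe named here.

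The tumours were 12 medulloblastomas of Ptch1+/- mice on a C3B6F1 background, named MB1 to MB12, and the labels divide them into R-type and S-type without explaining the letters. R-type tumours followed X-rays of 0.2 Gy (MB7, MB8 and MB9) or 1.5 Gy (MB10, MB11 and MB12) on postnatal day 1. S-type tumours followed 0.2 Gy (MB4, MB5 and MB6) or arose without irradiation (MB1, MB2 and MB3). Mice were observed until moribund, and age, given without a unit, was 87 to 127 in R-type and 128 to 173 in S-type mice. Age thus cannot be told apart from type. The 3 normal cerebella were unirradiated, with ages of 103 to 113, and the labels used here give them no genotype or strain. MB6 came from a male and the other 14 samples from females. Each sample was a whole tissue on 1 array, and the labels do not say whether any shared a litter.

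Growing axons and migrating neurons read these cues from their surroundings. Semaphorins signal through plexins, often with a neuropilin as co-receptor. Ephrins are anchored in the membrane and meet Eph receptor tyrosine kinases on neighbouring cells, and Slits repel cells that carry Robo receptors. Netrins attract through Dcc and repel through Unc5 receptors. In the developing cerebellum granule neuron precursors, the cells from which medulloblastomas of Ptch1+/- mice arise, divide in the external granule layer and then migrate inward as they mature. Members of all 4 systems are known to act on those steps. Ptch1, the receptor that holds the hedgehog pathway in check, is the gene that was targeted.

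Between 24288 and 27318 of 41098 probes were well above background on each array, and the arrays lay on 4 slides. Each value below is the log2 of a probe's signal over the array's 75th percentile, so that 0 marks a probe as bright as that percentile. Ptch1 transcript was itself higher in tumours than in normal cerebella by 0.78 ± 0.13 (SE; limma adjusted p = 0.000146), and lower in R-type than in S-type tumours by −1.30 ± 0.12 (adjusted p = 4.97e-05). Only S-type tumours, at −2.11 to −1.51, lay apart from the normal cerebella at −3.36 to −3.06. Ptch1 in R-type tumours, at −3.22 to −2.75, overlapped the normal cerebella. Its probe may lie outside the altered part of the gene and so does not check the genotype. The tissue labels fitted their markers. All 10 markers of granule neuron precursors were higher in tumours, and their summed linear signal, as a multiple of the 75th percentile, was 151 to 221 in tumours and 1.87 to 2.02 in normal cerebella. All 10 mature granule neuron markers were lower (29.6 to 52.8 in tumours and 310 to 348 in normal cerebella), as were all 10 Purkinje cell markers (5.99 to 10.2 and 334 to 358) and all 5 measured GABAergic interneuron markers (0.214 to 0.897 and 97.7 to 107). Lower signal was also called for 8 of 9 markers of astrocytes and Bergmann glia and for 7 of 8 oligodendrocyte markers, while all 8 microglial markers were higher. In whole tissue, fewer cells of a type and less RNA per cell cannot be told apart. These cell types also use guidance genes, and the part of tissue make-up in the results was not tested.

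Of the 61 guidance genes tested, 51 were called different between tumour and normal cerebellum, in both directions, and 42 of these calls held in every alternative. By limma with Benjamini-Hochberg adjustment at 0.05 over 21661 tested names, 26 of the 61 were higher in tumours (42.6%, beside 43.0% of all tested names) and 25 were lower (41.0%, beside 35.8%). The shares of called genes were thus close to the background. The differences were wide: the median size of change was 1.36 log2 units for the 61 genes and 0.908 for all tested names. Of the 61, 18 were called at least 2-fold higher and 19 at least 2-fold lower. Both are larger shares than the 24.0% and 21.6% of all tested names. The median change was 0.116 for the guidance genes and 0.119 for all. The netrin receptors parted most, with a log2 change of 7.10 for Dcc and −5.21 for Unc5a.

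**Figure D1:**
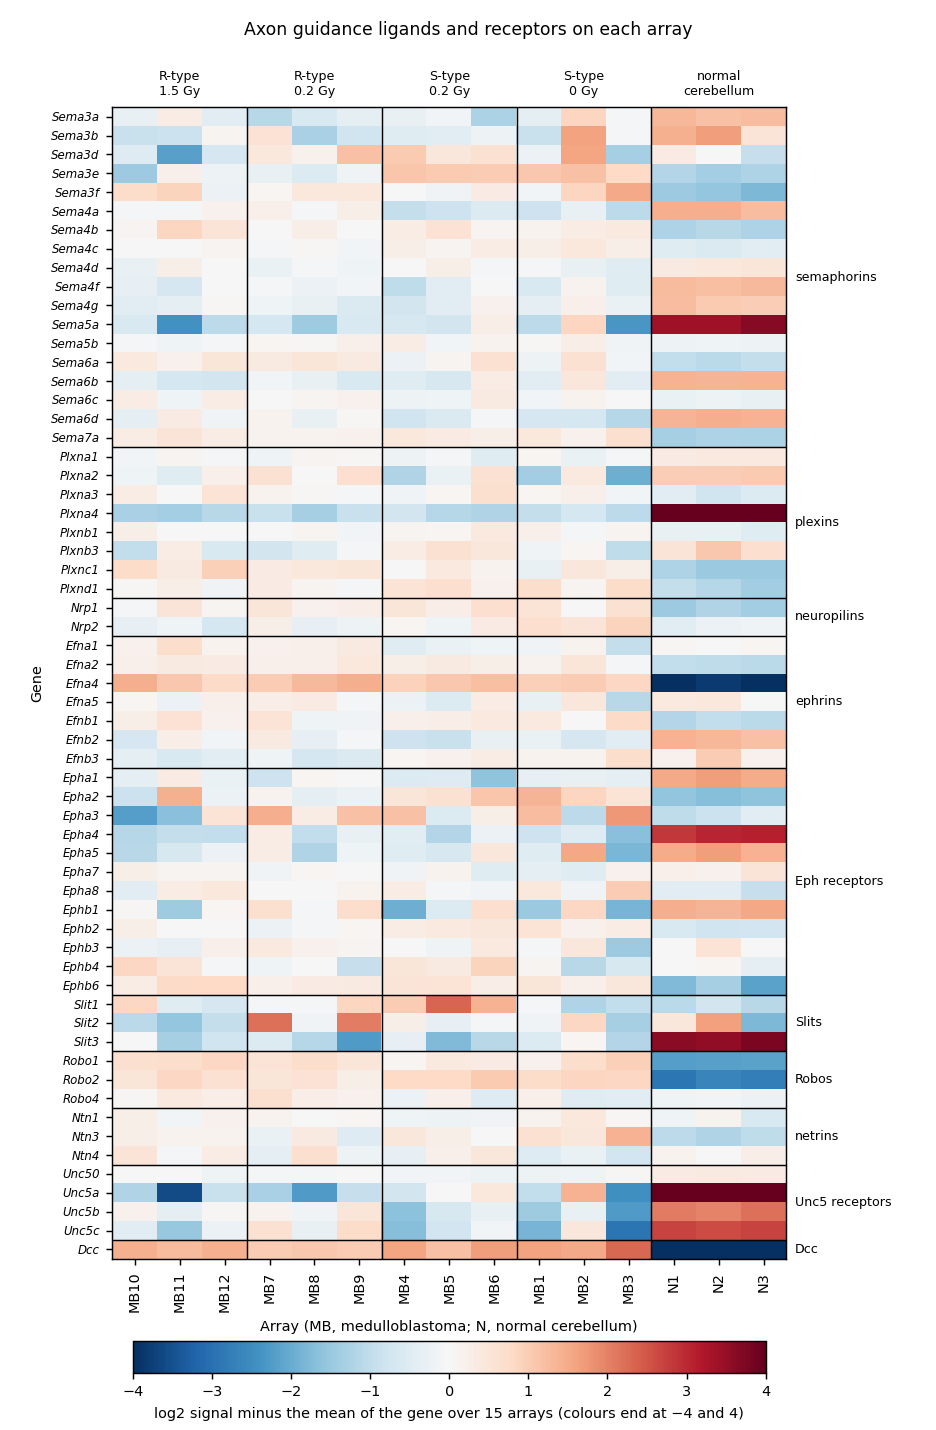
Heat map of the 61 tested genes (rows, by family) on 15 arrays (columns, by group), coloured by log2 signal minus the mean of the gene over all arrays. Dcc, Efna4, Robo1 and Robo2 are low in the 3 normal cerebella, and Plxna4, Slit3, Sema5a, Epha4 and the Unc5 genes Unc5a, Unc5b and Unc5c are high there. Among the 12 tumours, Dcc, Efna4, Robo1, Robo2 and Plxna4 differ less than this, while Unc5a, Unc5b, Unc5c and Sema5a spread widely.

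RefSeq promoters (build GRCm38.p6, from 250 bases before to 50 after a gene's start) were on hand for 57 of the 67 genes, 71 promoters in all. Dcc and Plxna4 were among the 10 genes without one. They were read for GACCACCCA, the consensus of the Gli factors through which hedgehog signalling acts, on both strands. None of the 71 held it, beside 0.253% of 32851 mouse promoters. With so rare a motif, a set of 71 would seldom hold any, so nothing is drawn from this count. The 7-base core CCACCCA, which lies within that motif and was added after this count, stood in 6 of 71 (8.45%), beside 9.3% of all promoters. A match describes letters only. The core was found at Plxna2, Sema3c, Sema6c, Sema5a, Robo2 and Sema4a. The last 3 are printed because their log2 signals by group, and not only a change, are given below and they part in direction. Capitals mark the core, or its reverse complement TGGGTGG. Sema5a is at chr15:32244563-32244862 on the plus strand, Robo2 at chr16:75092721-75093020 and Sema4a at chr3:88461133-88461432, both on the minus strand. Each is printed from 5′ to 3′ on its gene's strand.
Sema5a: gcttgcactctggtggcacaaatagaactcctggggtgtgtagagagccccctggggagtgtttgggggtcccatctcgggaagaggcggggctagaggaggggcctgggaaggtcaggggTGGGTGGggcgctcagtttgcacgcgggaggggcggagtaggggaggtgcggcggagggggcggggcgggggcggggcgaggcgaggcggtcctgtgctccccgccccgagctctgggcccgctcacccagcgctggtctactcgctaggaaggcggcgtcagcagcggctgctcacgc
Robo2: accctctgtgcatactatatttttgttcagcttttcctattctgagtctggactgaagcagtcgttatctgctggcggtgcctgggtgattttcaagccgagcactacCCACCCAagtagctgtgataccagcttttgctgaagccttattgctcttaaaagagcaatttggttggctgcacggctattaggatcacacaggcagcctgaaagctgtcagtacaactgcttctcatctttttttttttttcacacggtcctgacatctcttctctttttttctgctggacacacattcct
Sema4a: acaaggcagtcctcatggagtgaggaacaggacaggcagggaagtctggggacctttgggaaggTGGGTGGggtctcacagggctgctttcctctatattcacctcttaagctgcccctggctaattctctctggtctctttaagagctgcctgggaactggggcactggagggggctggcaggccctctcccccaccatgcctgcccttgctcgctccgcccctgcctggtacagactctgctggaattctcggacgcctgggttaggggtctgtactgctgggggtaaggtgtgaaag
The core began 129 bases before the start at Sema5a, lower in tumours, 142 bases before it at Robo2, higher in tumours, and 186 bases before it at Sema4a, lower in tumours and higher in R-type than in S-type tumours.

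Among the semaphorins, 8 of 18 tested were higher in tumours and 9 were lower. The background for this and each later family count is 43.0% of all tested names higher and 35.8% lower. Sema3f, a secreted repellent that binds neuropilin-2, had a log2 signal of −2.08 to −0.31 in the 12 tumours (median −1.45), against −3.27, −3.38 and −3.62 in the normal cerebella. It was higher in every tumour than in any normal cerebellum, by 1.99 ± 0.29 (SE, adjusted p = 4.45e-05). Sema3e, the secreted ligand of plexin D1, was higher by 1.57 ± 0.25 (adjusted p = 8.23e-05), although MB10 at 0.33 lay below the normal cerebella at 0.43 to 0.62. Sema7a, a semaphorin held in the membrane by a lipid anchor, was higher by 1.59 ± 0.09 (adjusted p = 4.76e-09). Sema4b (1.49), Sema6a (1.25), Sema4c (0.64), Sema6c (0.32) and Sema5b (0.23) completed the higher ones. Sema6c was not called in 5 of 24 alternatives, among them without each of the normal cerebella (adjusted p 0.00945 to 0.561), and its second probe gave −0.11. Sema5b was not called in 12 of 24 alternatives, only 1 of its 3 probes was called, and the mean over them turned the change to −0.40.

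Sema5a, a transmembrane semaphorin with thrombospondin repeats, fell furthest. Its log2 signal was −4.41 to −1.12 in tumours (median −2.71), against 1.42, 1.41 and 1.65 in normal cerebella. The groups did not overlap, and the change was −4.35 ± 0.54 (adjusted p = 9.42e-06). The other 8 lower semaphorins lay between −1.76 for Sema6d and −0.53 for Sema4d, with Sema4a (−1.72), Sema6b (−1.72), Sema4f (−1.57), Sema3a (−1.55), Sema3b (−1.50) and Sema4g (−1.35) between them. Sema3a, the prototype repellent of growth cones, was well above background in 4 of 12 tumours and in all normal cerebella, and a second probe put its change at −4.35. Without normal 1 or without normal 2, the call of Sema3b was lost (adjusted p up to 0.0686, and 0.00193 to 0.0686 over its alternatives). Sema3d, at 0.23 ± 0.52, was not called (adjusted p = 0.698), and Sema3c was well above background only in normal 2.

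All 8 plexins, the semaphorin receptors, were called, 4 in each direction. Most tested names were called as well (43.0% higher and 35.8% lower). Plxnc1, the receptor of Sema7a, had a log2 signal of 1.71 to 2.96 in tumours (median 2.40), against 0.78, 0.54 and 0.54 in normal cerebella. It was higher in all 12 tumours, by 1.75 ± 0.16 (adjusted p = 4.34e-07), so that ligand and receptor of this pair were both called higher. Plxnd1, the receptor of Sema3e, was higher by 1.45 ± 0.15 (adjusted p = 2.39e-06), Plxna3 by 0.73 and Plxnb1 by 0.45. The 2 probes of Plxnb1 gave opposite calls (0.45 and −0.22), and its direction is uncertain.

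Plxna4, a receptor that acts with neuropilins for class 3 semaphorins, showed the largest fall of the 61 genes. Its log2 signal was −4.20 to −3.56 in tumours (median −3.92), against 1.36, 1.40 and 1.37 in normal cerebella. All 12 tumours lay close together and far below, with a change of −5.27 ± 0.12 (adjusted p = 3.2e-12), it was −5.49 to −5.11 within slides, and its 3 probes were all called lower (−5.27 to −2.51). Plxna2, which with Sema6a is known to govern granule cell migration in mice, was lower by −1.26 ± 0.43 (adjusted p = 0.0178), Plxnb3 by −0.94 and Plxna1 by −0.47. Leaving out normal 2 or normal 3 ended the call of Plxna2 (adjusted p up to 0.0554, and 0.00125 to 0.0554 over its alternatives). Both neuropilins were called higher, Nrp1 by 1.68 ± 0.15 (adjusted p = 4.67e-07) and Nrp2 by 0.35 ± 0.15 (adjusted p = 0.0467). The small difference of Nrp2 was lost in 14 of 24 alternatives. Its mean log2 signal was 0.62 in R-type and 1.26 in S-type tumours, beside 0.59 in normal cerebella, so R-type tumours lay near the normal level.

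**Figure D2:**
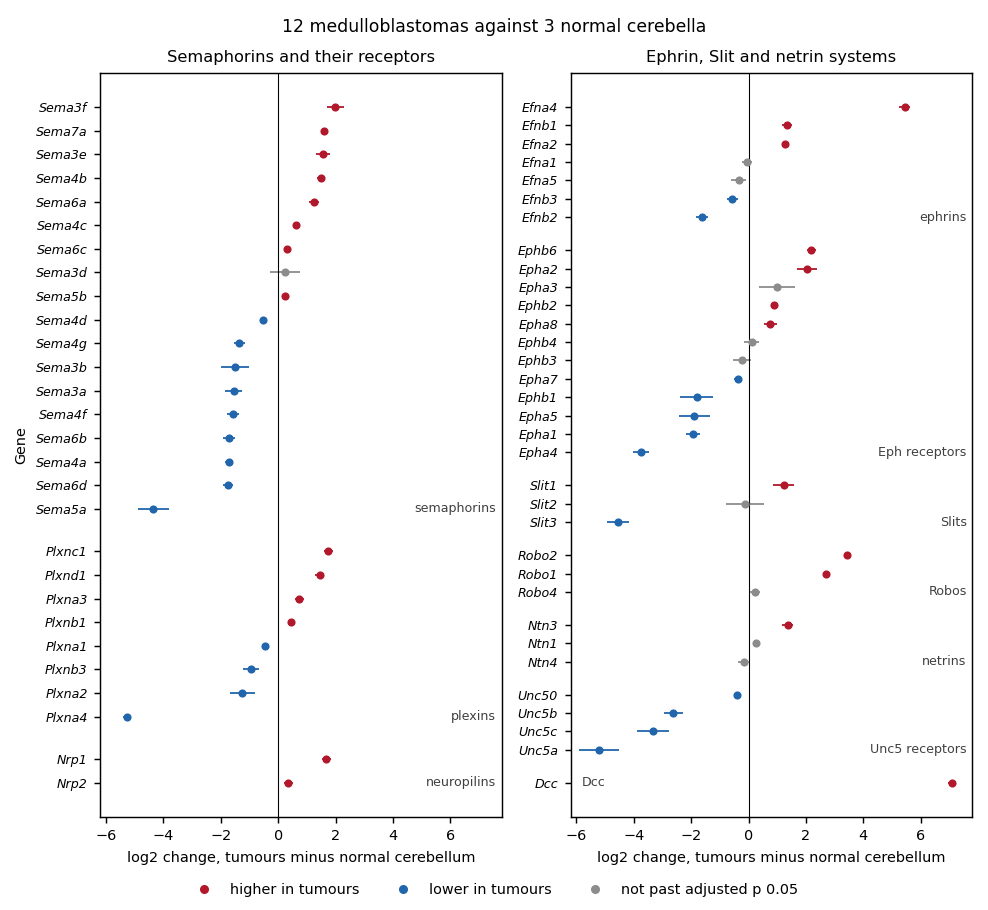
Log2 change of each tested gene in 12 tumours minus 3 normal cerebella, with the standard error of the limma fit as a bar. Families are set apart and ordered by change. Dcc at 7.10 and Efna4 at 5.44 lie far to the right, and Plxna4 at −5.27 and Unc5a at −5.21 far to the left.

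Of 7 ephrins, 3 were higher and 2 lower. Efna4, a ligand held by a lipid anchor, had a log2 signal of −0.74 to −0.04 in tumours (median −0.44), against −5.72, −5.33 and −6.49 in normal cerebella. It was well above background in all 12 tumours and in 1 of 3 normal cerebella, so that its normal level is known only roughly. The change was 5.44 ± 0.20 (adjusted p = 1.75e-10). The transmembrane ephrin Efnb1 was higher by 1.34 ± 0.17 (adjusted p = 1.15e-05) and Efna2 by 1.28 ± 0.10 (adjusted p = 1.42e-07). Efnb2 was lower by −1.62 ± 0.19 (adjusted p = 6.76e-06). Efnb3 was lower by −0.57 ± 0.18 (adjusted p = 0.0124), a call lost without normal 2 (adjusted p = 0.12, and 0.00584 to 0.12 over its alternatives). Its log2 signal was 0.39 to 0.91 in R-type tumours, below the normal cerebella at 1.26 to 2.09. In S-type tumours, at 1.17 to 1.79, it overlapped them. Efna1 (−0.05) and Efna5 (−0.34) were not called.

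The Eph receptors divided as well, with 4 of 12 tested higher and 5 lower. Ephb6, a receptor that lacks kinase activity, had a log2 signal of −1.82 to −1.21 in tumours (median −1.60), against −3.78, −3.33 and −4.14 in normal cerebella. The groups were apart by 2.18 ± 0.15 (adjusted p = 4.62e-08). Epha2 had −1.35 to 0.95 in tumours (median 0.04), against −2.05, −2.19 and −2.08 in normal cerebella. It was higher in every tumour, with a wide spread among them, by 2.04 ± 0.36 (adjusted p = 0.000192). Ephb2 was higher by 0.90 ± 0.09 (adjusted p = 1.69e-06) and Epha8 by 0.76 ± 0.22 (adjusted p = 0.00722). The call of Epha8 was lost without normal 3 (adjusted p = 0.0521, and 0.00169 to 0.0521 over its alternatives).

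Epha4, a receptor for ephrins of both classes, was the Eph gene that fell most. Its log2 signal was −3.81 to −1.84 in tumours (median −3.05), against 0.68, 0.90 and 0.95 in normal cerebella. The change was −3.74 ± 0.28 (adjusted p = 7.46e-08), with no overlap. Epha1 had −6.77 to −4.82 in tumours (median −5.51), where 6 of 12 were well above background, against −3.64, −3.48 and −3.68 in normal cerebella. Its change of −1.95 ± 0.24 (adjusted p = 9.66e-06) thus rests partly on dim spots. Epha5 (−1.89) and Ephb1 (−1.81) were called lower while spreading widely among tumours. Epha7 changed by −0.36 on the probe used (adjusted p = 0.04), a call lost in 13 of 24 alternatives, and by −3.02 on a second probe. Epha3 (0.98 ± 0.63), Ephb3 (−0.23) and Ephb4 (0.12) were not called, Epha10 was well above background only in normal 1, and Epha6 on no array.

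Slits and Robos parted, the receptors higher and the ligands mixed. Robo2 had a log2 signal of −1.46 to −0.63 in tumours (median −0.91), against −4.56, −4.31 and −4.44 in normal cerebella, and was higher by 3.44 ± 0.10 (adjusted p = 1.73e-11). Robo1 had 1.28 to 2.14 in tumours (median 1.78), against −1.03, −0.98 and −0.94 in normal cerebella, and was higher by 2.71 ± 0.13 (adjusted p = 1.45e-09). Both receptors were above every normal cerebellum in all 12 tumours. Robo4, the Robo of blood vessel endothelium, did not pass (0.22 ± 0.17, adjusted p = 0.261). Of the 8 endothelial markers, 4 were higher and 2 lower.

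Slit3, a secreted ligand of the Robos, had −6.86 to −4.52 in tumours (median −5.56), where 5 of 12 were well above background, against −1.0, −1.06 and −0.84 in normal cerebella. Its change was −4.55 ± 0.39 (adjusted p = 3.48e-07), and the tumour values lay near the detection limit. Slit1 was higher by 1.23 ± 0.36 (adjusted p = 0.00759), with tumours at −4.33 to −0.82 reaching into the normal range of −4.26 to −3.88. Slit2 was dim, well above background in 9 of 12 tumours and 2 of 3 normal cerebella, and not called (−0.13 ± 0.66, adjusted p = 0.864).

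In the netrin system the attractant and the repellent receptors went opposite ways. Dcc, the receptor through which netrins attract, had a log2 signal of 2.08 to 3.36 in tumours (median 2.50), against −4.68, −4.42 and −4.72 in normal cerebella. All 12 tumours lay far above, by 7.10 ± 0.15, a 137-fold difference (adjusted p = 1.35e-12) and the largest of the 61 genes in either direction. Within the 3 slides that held both tissues the difference was 7.03 to 7.28.

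Unc5a, Unc5b and Unc5c, receptors through which netrins repel, were all lower. Unc5a had −5.31 to −0.35 in tumours (median −2.69), against 2.41, 2.44 and 2.44 in normal cerebella. Its change was −5.21 ± 0.69 (adjusted p = 1.84e-05), with 11 of 12 tumours well above background and a wide spread among them. Within slides the change lay between −6.95 and −3.94. Unc5c, without which mice form granule cells outside the cerebellar borders, had −4.08 to −0.41 in tumours (median −1.51), against 1.55, 1.45 and 1.53 in normal cerebella. It fell by 3.33 ± 0.56 on the log2 scale (adjusted p = 0.000144), again with no overlap. Unc5b had −1.52 to 1.22 in tumours (median 0.46), against 2.84, 2.75 and 2.95 in normal cerebella, and changed by −2.62 ± 0.35 (adjusted p = 1.76e-05). Unc50 was lower by −0.41 ± 0.06 (adjusted p = 5.38e-05), while Unc5d and Unc5cl were well above background on no array.

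The ligands moved less than their receptors. Ntn3 was higher by 1.36 ± 0.20 (adjusted p = 3.55e-05). Ntn1, the main netrin of the developing brain, was not called (0.27 ± 0.13, adjusted p = 0.075), but a second probe was called higher at 1.62. Without normal 2 it would have been called (0.44, adjusted p = 0.00903, and 0.000469 at the lowest over its alternatives). Ntn4 (−0.17) was not called, and Ntn5 was well above background only in normal 2.

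Other genes of axon guidance, a list of 62 co-receptors, adhesion partners and signalling proteins of which 58 were tested, also split. In tumours 22 of the 58 were higher, a smaller share than the 43.0% of all tested names. Lower were 27 of the 58, a larger share than the 35.8% of all tested names. Draxin, a secreted partner of netrin and Dcc, averaged a log2 signal of 0.29 ± 0.26 in tumours (SD, n = 12), and this probe was well above background on no array of the normal cerebella. A second Draxin probe was, so no size is given. Its limma adjusted p was 5.39e-14. Cxcr4, the chemokine receptor of granule cell migration, was higher by 5.66 ± 0.19 (adjusted p = 9.1e-11). Mical1, an enzyme that takes apart actin downstream of plexins, was higher by 4.65 ± 0.12 (adjusted p = 8.84e-12), and Crmp1, which relays semaphorin signals to microtubules, by 2.07 ± 0.08 (adjusted p = 3.61e-10). Rnd1, a small GTPase that binds plexins, was lower by −4.98 ± 0.20 (adjusted p = 2.77e-10) and Tiam1, a Rac activator, by −2.89 ± 0.12 (adjusted p = 3.72e-10). Pak1, a kinase driven by Rac, was lower by −4.37 ± 0.24 (adjusted p = 5.88e-09) and Ablim1, an actin-binding protein, by −4.34 ± 0.23 (adjusted p = 3.51e-09).

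R-type and S-type tumours differed far less, and in 12 of the 61 genes. Against S-type, 5 genes were higher in R-type tumours (8.2%, beside 10.7% of all tested names) and 7 were lower (11.5%, beside 10.2%). These shares are near the background. The median size of difference was 0.255 for the guidance genes and 0.195 for all. Dose, age and type go together in these groups and cannot be told apart over the whole set. Without scaling between arrays all names shifted by −0.199 at the median, and the guidance genes then split into 1 higher and 15 lower. In that setting Sema4a remained the one called higher, and directions below are relative to the 75th percentile.

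Sema4a, a membrane semaphorin that signals through plexins, was higher in R-type tumours. It had a log2 signal of −1.23 to −0.91 in R-type (median −1.08), against −2.19 to −1.45 in S-type (median −1.97). The types did not overlap, the difference was 0.81 ± 0.13 (SE, adjusted p = 0.00144; 0.33 to 1.15 within the 4 slides), and all 25 alternatives kept the call. In normal cerebella it was higher still, at 0.09 to 0.32. Sema6d had 1.02 to 1.71 in R-type (median 1.35), against 0.27 to 1.32 in S-type (median 0.72), a difference of 0.60 ± 0.15 (adjusted p = 0.0171).

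Sema3e went the other way. It had 0.33 to 1.98 in R-type (median 1.52), against 2.57 to 2.95 in S-type (median 2.85). No value was shared, and it was lower by −1.44 ± 0.22 in R-type (adjusted p = 0.00134), with MB10 lowest, and in each of 25 alternatives. Within slides it was −2.55 to −0.97. Its receptor Plxnd1 was at −0.16 ± 0.18 in R-type and 0.24 ± 0.27 in S-type (SD, n = 6 each) and was not called (adjusted p = 0.0587). Sema4c was lower by −0.25 ± 0.06 (adjusted p = 0.0111), in all alternatives. Nrp2, co-receptor of Sema3f, had 0.15 to 1.1 in R-type (median 0.61), against 0.70 to 1.76 in S-type (median 1.29), lower by −0.64 ± 0.13 (adjusted p = 0.0067).

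Of the ephrins, Efnb3, a transmembrane ligand that repels corticospinal axons at the midline in mice, had 0.39 to 0.91 in R-type (median 0.56), against 1.17 to 1.79 in S-type (median 1.25). The types did not overlap, and the difference was −0.74 ± 0.16 (adjusted p = 0.00841). Efna1 had −1.99 to −1.41 in R-type (median −1.93), against −3.07 to −1.99 in S-type (median −2.34), higher by 0.61 ± 0.17 (adjusted p = 0.0232). Without MB4, MB9 or MB11 that call was lost (adjusted p 0.00876 to 0.0986 over its alternatives). Ephb2, a receptor that binds B-class ephrins, had 1.76 to 2.22 in R-type (median 2.00), against 2.15 to 2.52 in S-type (median 2.34), lower by −0.34 ± 0.08 (adjusted p = 0.0136) and in all alternatives. Ligand and receptor were thus both called lower in R-type tumours.

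**Figure D3:**
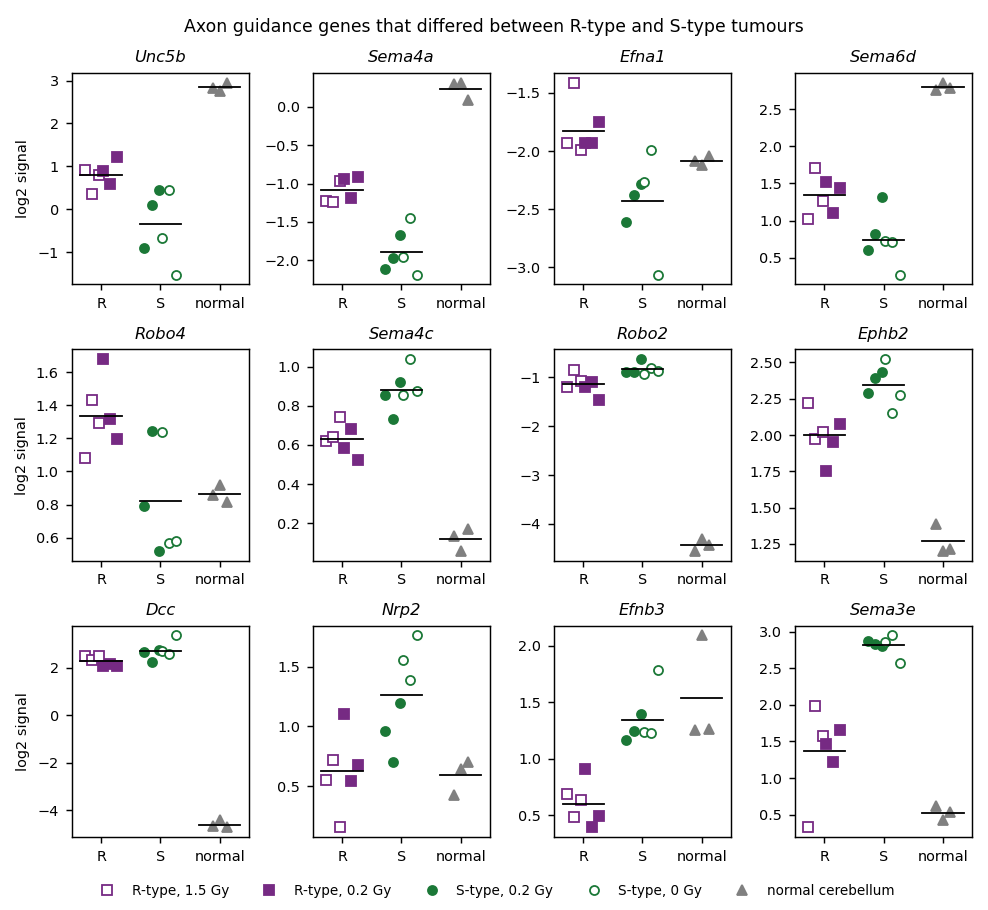
Log2 signal of the 12 guidance genes called between the tumour types, with 1 point for each array, coloured by type and filled by dose, and a bar at the mean of each tissue or type (R, R-type; S, S-type). Sema4a, Efnb3 and Sema3e show no overlap between R-type and S-type points, while Dcc and Robo2 differ little beside their distance from normal cerebellum.

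Unc5b had 0.36 to 1.22 in R-type (median 0.85), against −1.52 to 0.46 in S-type (median −0.29). The difference was 1.14 ± 0.31 (adjusted p = 0.0233), and it was lost without MB9 (adjusted p 0.00419 to 0.0588 over its alternatives). Dcc was lower by −0.44 ± 0.13 (adjusted p = 0.0378), at 2.08 to 2.51 in R-type and 2.24 to 3.36 in S-type, with the highest value in MB3. Robo2 had −1.46 to −0.86 in R-type (median −1.14), against −0.93 to −0.63 in S-type (median −0.88), lower by −0.31 ± 0.09 (adjusted p = 0.0261). Both genes were far above normal cerebellum in either type. Dcc lost its call in 11 of 25 alternatives, among them without normal 1 and without each of MB4 and MB6 to MB12, and Robo2 in 5, among them without MB2, MB6, MB9 or MB10.

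Robo4 had 1.08 to 1.68 in R-type (median 1.31), against 0.52 to 1.25 in S-type (median 0.69), higher by 0.51 ± 0.15 (adjusted p = 0.0341). The call was lost in 10 of 25 alternatives (adjusted p 0.0106 to 0.148 over them). These were without scaling, with no filter, with only the compared arrays, and without MB2, MB3, MB4, MB6, MB7, MB11 or MB12. The summed endothelial signal was 13.3 to 18.5 in R-type and 9.02 to 16.4 in S-type tumours, and lowest in MB2 and MB3, where Robo4 was at 0.56 and 0.58. Robo4 itself was lowest in MB6 (0.52, with a sum of 11.8) and highest in MB7 (1.68, with a sum of 14.7). The sum was highest in MB11 (18.5), where Robo4 was at 1.43. All 8 endothelial markers had positive differences (median 0.298). None of them was called by limma, while 3 had an unadjusted p under 0.05, and their part in the Robo4 difference was not tested.

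Of the 58 other guidance genes tested, 6 were higher and 6 lower in R-type tumours. These shares are near the 10.7% and 10.2% of all tested names. Farp2, an exchange factor that binds plexin A, was higher by 0.55 ± 0.08 (adjusted p = 0.00103), Enah, an actin regulator, by 0.36 ± 0.07 (adjusted p = 0.00439), Nrcam, an adhesion molecule of semaphorin receptors, by 0.37 ± 0.09 (adjusted p = 0.0139) and Farp1, related to Farp2, by 0.31 ± 0.08 (adjusted p = 0.0174). Enah, Nrcam and Farp1 were not called without scaling. Vav3, an exchange factor downstream of Eph receptors, was lower by −0.72 ± 0.16 (adjusted p = 0.0106), and the Rac-driven kinases Pak1 by −0.85 ± 0.22 (adjusted p = 0.0175) and Pak3 by −0.41 ± 0.11 (adjusted p = 0.0179).

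At 0.2 Gy, the dose both types share, the comparison rested on 3 tumours each, and ages still did not overlap. Sema4a alone was called higher, beside 1.94% of all tested names, and Sema3e alone lower, beside 2.92%. Sema4a was at −0.94, −1.19 and −0.91 in R-type tumours, against −2.11, −1.97 and −1.67 in S-type tumours, a difference of 0.90 ± 0.18 (adjusted p = 0.018). Sema3e was at 1.47, 1.23 and 1.65 in R-type, against 2.88, 2.84 and 2.80 in S-type, a difference of −1.39 ± 0.31 (adjusted p = 0.03). Values did not overlap for either gene. Neither call held in all 25 alternatives. That of Sema4a was lost without MB4, MB5, MB7 or MB9, without scaling and with only the compared arrays (adjusted p 0.00473 to 0.0765 over its alternatives). That of Sema3e was lost without any one of MB4 to MB9, with no filter, with the mean over probes and with slide as a block (0.00058 to 0.0864), and 1 of its 3 probes was called. Without scaling, 0 guidance genes were higher and 12 lower. Ephb2 (−0.44, adjusted p = 0.0528) missed the threshold but was called lower in 7 of 25 alternatives (0.00497 to 0.156), and in a fit over single probes both of its probes were called lower (−0.57 and −0.44). Robo2 (−0.44, adjusted p = 0.0617) was called in 3 of 25 (0.0165 to 0.226).

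No guidance gene was called between doses within a type by limma, where 0.00462% (S-type) and 0.0692% (R-type) of all tested names were. Ages did not overlap between the doses, so dose and age cannot be told apart here. In S-type mice they were 128, 133 and 135 after 0.2 Gy, against 160, 173 and 172 without irradiation. In R-type mice they were 87, 101 and 103 after 1.5 Gy, against 127, 106 and 113 after 0.2 Gy. At an unadjusted p of 0.05, 8 of 61 passed between 0.2 and 0 Gy in S-type tumours (13.1%, beside 5.77% of all tested names) and 5 of 61 between 1.5 and 0.2 Gy in R-type tumours (8.2%, beside 7.22%), the second a share near the background. Slit1 was farthest apart in S-type tumours, at −2.12, −0.82 and −1.73 after 0.2 Gy, against −3.19, −4.33 and −4.12 without irradiation, a difference of 2.32 ± 0.46 (adjusted p = 0.386). Slit2 was farthest apart in R-type tumours, at −5.16, −5.60 and −5.03 after 1.5 Gy, against −1.86, −4.21 and −2.03 after 0.2 Gy, a difference of −2.57 ± 0.83 (adjusted p = 0.58). MB8 stood with the tumours of the higher dose, and Slit2 was well above background in only 1 of 3 tumours after 1.5 Gy. Epha3, measured in all of these tumours, differed by −2.09 ± 0.80 (adjusted p = 0.612). Sema3d was well above background in 0 of 3 tumours after 1.5 Gy and 2 of 3 after 0.2 Gy, and no size is given.

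Some guidance genes spread widely among tumours of a group. The median within-group SD was 0.301 for the 61 genes and 0.214 for all tested names, and it was over 1 for Unc5a (1.16), Slit2 (1.1) and Epha3 (1.05). In S-type tumours MB2 was highest for 25 of the 61 genes (41.0%, beside 16.5% of all tested names) and MB3 lowest for 21 (34.4%, beside 24.9%). Unc5a, for instance, was at −0.35 in MB2 and −4.19 in MB3, and Unc5c at −0.70 and −4.08. The mean log2 signal of the 10 mature granule neuron markers was 1.07 in MB2 and −1.06 in MB3, and −1.66 in MB11, the R-type tumour where Unc5a (−5.31) and Sema5a (−4.41) were lowest. In normal cerebella that mean was 4.26 to 4.49. It was −0.92 in MB6, the next lowest S-type tumour after MB3. The summed linear signal of these markers ranked the tumours otherwise. In S-type it was 52.8 in MB2, 34.8 in MB6, 31.1 in MB3 and lowest in MB1 (29.6), and it was 37.3 in MB11. Among S-type tumours, Unc5a (−1.31), Unc5c (−1.26) and Sema5a (−1.72) were next highest in MB6 after MB2. The summed choroid plexus signal was also 12.2 in MB2 and 7.92 in MB3, against 1.41 to 2.27 in the other 4 S-type tumours. Whether the share of such cells sets these differences was not tested. Without MB3, Unc5a would have been called lower in R-type tumours (−1.74, adjusted p = 0.0444, and 0.158 with all tumours).

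**Figure D4:**
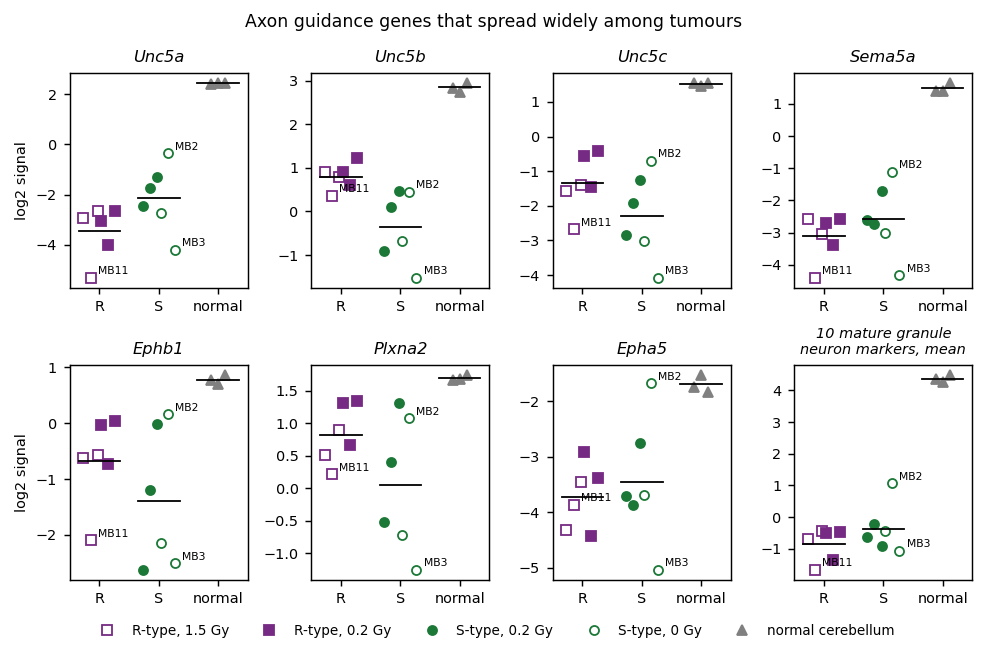
Log2 signal of 7 guidance genes on each array and, in the last panel, the mean log2 signal of 10 mature granule neuron markers. Points are arrays, bars are means of R-type (R), S-type (S) and normal samples, and the genes were chosen after their values were seen. MB2 is the highest S-type tumour for Unc5a, Unc5c, Sema5a, Ephb1, Epha5 and the markers, and MB6 for Unc5b and Plxna2. MB3 is the lowest S-type tumour in every panel but that of Ephb1, where MB4 is.

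Of the 67 genes, Sema4d and Unc5a lie on chromosome 13, which also carries Ptch1, in the order Sema4d, Unc5a, Ptch1. Ptch1 was lower in R-type tumours without overlap, whereas Sema4d was not called on the probe used (0.02, adjusted p = 0.926) or on its other probe (−0.81). Unc5a was at −3.43 ± 1.05 in R-type and −2.13 ± 1.32 in S-type tumours (SD, n = 6 each), and the difference of −1.30 ± 0.62 did not pass (adjusted p = 0.158).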

How the data were processed

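RNA of 12 medulloblastomas and 3 normal cerebella was read on 15 one-colour Agilent arrays. The scanner files hold spot intensities that the authors deposited after Agilent Feature Extraction 9.5.1, with background subtracted, per the file headers and the submitters' processing notes. The deposited table of log2 values by the authors matched the scanner values less the mean of MB1 and MB2 (Pearson r 0.99992 to 0.99999 across probes). Its scale and centring were inferred from that match, and its column medians were 0.0024, 0.082 and 0.0892 for normal 1 to 3 and 0.0506, −0.0506, 0.1055, 0.0682, −0.0795, 0.0525, 0.0703, 0.1299, 0.1266, 0.0908, 0.1518 and 0.099 for MB1 to MB12. It served as an alternative only.

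From the processed signals, the log2 value less each array's 75th percentile was computed. Control spots and 76 probes with outlier flags were left out, 41098 probes remained, and 24800 were named through RefSeq accessions. A gene was represented by its probe of highest mean. Names had to be well above background on at least 3 arrays. The 5 groups of 3 arrays were fitted together with limma 3.58.1 in R 4.3.3 (lmFit, eBayes), and p-values were Benjamini-Hochberg adjusted at 0.05 over all 21661 tested names. The script was tested on simulated data. Since no label says that samples were independent beyond being separate, a p-value reflects only how these samples vary, which may be partly technical, and the number of arrays limits the precision. Tables and plots used Python 3.11.15, pandas 2.3.3, numpy 2.4.6 and matplotlib 3.10.9.

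Values were given in full for the 8 highest and 8 lowest called changes against normal cerebellum without overlap, and for up to 10 called genes each way between types and 4 each way in other comparisons. For the other guidance genes it was up to 4 each way by adjusted p. One gene that this rule names is not reported here. The genes and lists were chosen with earlier results of these data known. Replicate numbers shared by groups did not pair samples (correlations of deviations 0.045, −0.025 and 0), so no block was used. Alternatives were normexp background correction (offset 50), no scaling, quantile normalization, no and a stricter filter, the mean over probes, slide as a block, the deposited table, only the arrays compared, a replicate block, and leaving out each array.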

Additional observations from a re-analysis of the deposited data

Results flagged for a closer look

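In 122 groups of 6 tumours, 5 held a tumour far from the others of its type by Dixon's criterion, which chance alone meets in about 1 in 20 groups. Efnb3 was highest in MB3 among S-type tumours, at a log2 signal of 1.788, with the nearest at 1.399. Epha1 was lowest in MB6 among S-type tumours, at −6.765 (not well above background), with the nearest at −5.709. Ephb1 was lowest in MB11 among R-type tumours, at −2.096, with the nearest at −0.724. Ephb3 was lowest in MB3 among S-type tumours, at −3.773, with the nearest at −2.475. Sema3b was highest in MB2 among S-type tumours, at −2.914, with the nearest at −4.549.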

How the results depend on the processing

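Against normal cerebellum, 42 of the 51 called genes kept their call in all 24 alternatives, with 23 to 27 genes higher and 24 to 28 lower over settings, and 22 to 26 higher and 21 to 25 lower when 1 array was left out. The 28 came from the setting without a filter, which took in all 67 genes rather than the 61 tested. Sema5b turned to −0.40 (adjusted p = 0.246) with the mean over probes. Between types, 6 of 12 calls were kept in all 25 alternatives (Sema3e, Sema4a, Efnb3, Nrp2, Ephb2 and Sema4c). Without scaling the counts between types were 1 higher and 15 lower, and leaving out 1 array gave 3 to 7 higher and 5 to 8 lower. Over all tested names, the split between types was 2312 higher and 2216 lower with scaling, 577 and 5805 without, and 3287 and 1635 with normexp. At 0.2 Gy, 0 genes were higher without scaling or with only the compared groups, and 0 to 1 when 1 array was left out. Lower there were 12 without scaling, 3 with normexp or quantile normalization, 2 with the stricter filter, 2 with the mean over probes (an Eph receptor and a Robo, not Sema3e), 0 without the filter or with slide as a block, and 0 to 2 when 1 array was left out. The causes were not tested, except that leaving out arrays leaves fewer samples. Dose counts stayed at 0 in every alternative run. With a replicate block (consensus correlation −0.015) the counts were 26 higher and 25 lower against normal cerebellum and 5 higher and 7 lower between types, as without it. Scan and slide coincide, so scan was not run separately. Genes near the detection limit (Slit3, Epha1, Sema3a, Sema3d, Slit2) are known least precisely, and the slide without a normal cerebellum adds nothing to that contrast within slides.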
